A study of Mus musculus with 14 samples.

Results

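The loss of Cdx2 in sorted intestinal stem cells was followed on 5 of the 14 arrays of the series, chosen by the sample titles as the 2 arrays of Cdx2null small intestinal stem cells (Cdx2null SI SCs) and the 3 arrays of control SI SCs. The question was which genes differ once the floxed allele has been removed from the stem cells themselves. Each sample's RNA was measured on its own Affymetrix expression array, and each value is a log2 probe set level. One probe set per gene was kept, which gave 18821 genes.

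All cells came from proximal small intestinal organoids of adult male and female mice on a mixed C57Bl6j/CBA background with the genotype Cdx2-/fl Lgr5-EGFP-Ires-CreERT2. Control cells therefore also lacked 1 Cdx2 allele and carried the same reporter and Cre, which is transcribed from the Lgr5 locus. The Cdx2null cells were exposed overnight to 4-hydroxytamoxifen, which lets CreERT2 enter the nucleus and delete the floxed allele, and the controls were not. Organoids were grown from single cells, and Lgr5-EGFPhi cells were sorted again before RNA extraction, so each array may stand for 1 clone. The protocol places these organoids in ENRWfg, the medium for stomach organoids. The paper states a shared gastric medium for 2 samples of each stem cell type. It also says that control SI SCs could be kept in either intestinal or stomach medium. More control SI SC arrays than that were used here, and the paper does not give the medium of each. A difference in medium among the control arrays was not tested. Stem cells sorted from stomach organoids of the same genotype without 4-hydroxytamoxifen (control Sto SCs, 2 arrays) served only to estimate the spread, and their values are set beside those of the SI SCs. Nothing says that arrays of a group came from separate animals, so p-values measure the spread between these samples, which may be technical.

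The homeobox factor Cdx2 and its relative Cdx1 are expressed along the intestine and not in the healthy adult stomach. It binds regulatory regions of genes for brush border enzymes, transporters and intestinal mucins. Lgr5, an R-spondin receptor, marks the stem cells at the base of both intestinal crypts and pyloric glands of the stomach, so that the same sort yields stem cells from either organ.

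Cdx2 stood at 9.04, 10.05 and 8.94 on control SI SCs 1, 2 and 3, and at 8.41 and 4.88 on the arrays labelled Cdx2null SI SCs 1 and 2. The array labelled Cdx2null SI SCs 1 thus lay just under the controls, whereas the array labelled Cdx2null SI SCs 2 lay at the level of control Sto SCs, which read 5.08 and 4.67. The difference of -2.69 ± 0.93 (log2, ± SE) was not called, with an adjusted p of 0.295 in limma. When the array labelled Cdx2null SI SCs 1 was left out, Cdx2 was called, at -4.46 (0.0129). The probe sets for Cdx2 span exons that remain after recombination, so this signal does not check the deletion, and the 2 arrays are described separately throughout.

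Lgr5 itself read 11.56, 11.30 and 10.79 on the controls and 10.78 and 11.32 on the Cdx2null arrays, and the groups overlapped (-0.17 ± 0.28, adjusted p = 0.898). The epithelial adhesion genes Epcam and Cdh1 lay between 11.24 and 11.87 on all 5 arrays. None of the 51 measured markers of mesenchyme (14 genes), immune cells (13), endothelium (10) and squamous epithelium (14) was called. Their mean level per array spanned 4.15 to 4.48 for mesenchyme, 4.15 to 4.31 for immune cells, 3.79 to 3.97 for endothelium and 4.57 to 5.01 for squamous epithelium, while Ptprc, Cd3e and Pecam1 did not exceed 4.34 on any of them. Of the mesenchymal markers Vim read 5.91, 5.36 and 5.55 on the controls and 7.11 and 5.90 on the Cdx2null arrays, and its part in the results was not tested. For comparison, 3 Y-linked genes read between 2.56 and 3.25 on the 5 stem cell arrays with a high Xist signal, which gives the level of an absent transcript. Because bulk RNA was measured, fewer cells of a type and less RNA per cell cannot be told apart.

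Certain features of the arrays touch the results. Control SI SCs 1 and 3 were male by Xist and Kdm5d, and control SI SCs 2 and both Cdx2null arrays were female. Control SI SCs 3 was exported differently, since 100% of its values were log2 of signals with 1 decimal, and its upper quartile was 7.50 against 7.83 to 7.90 on the other 6 stem cell arrays. A further label of this array carries replicate number 1 where its title has 3, and it correlated with control SI SCs 1 at 0.990 over genes, against 0.989 and 0.982 for the other control pairs. Genes at least 2-fold apart numbered 492 between controls 1 and 3 and 391 between 1 and 2. The different scale of control SI SCs 3 can itself give such differences, so these counts cannot show a separate origin. By its title it was kept as a control of its own. Whether it shares an origin with another control array is not known, and if it does the p-values are too small. A call below means an adjusted p under 0.05 in limma over all genes and at least a 2-fold difference (1 on the log2 scale).

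A total of 287 genes were called, 1.52% of those tested, of which 175 (0.930%) were higher and 112 (0.595%) were lower in Cdx2null SI SCs. Both Cdx2null arrays lay above all 3 controls for 15.4% of all genes and below them for 9.52%. Every one of the 287 called genes was of this kind. At least 8-fold differences were found for 42 of the lower and 31 of the higher genes. The t-test of the study's methods was run on the 5 SI SC arrays, whereas the study compared 2 samples of each type. It called 0 genes after Benjamini-Hochberg adjustment and gave 1264 genes an unadjusted p under 0.05. On the same 5 arrays limma called 241 genes, so the calls depend on limma's pooling of the spread over genes.

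The largest fall was that of Cps1. Cps1, which makes carbamoyl phosphate for the urea cycle, read 10.84, 12.05 and 10.34 on the controls and 4.11 and 3.69 on the Cdx2null arrays, a difference of -7.18 ± 0.46 or 145-fold (adjusted p = 0.00139). Muc13, a transmembrane mucin of the intestinal surface, read 10.06, 10.07 and 8.69 against 3.73 and 3.30 (-6.09 ± 0.42, adjusted p = 0.00181). The unconventional myosin Myo7b, which anchors the links between microvillus tips, read 10.63, 10.70 and 10.13 against 5.40 and 3.92 (-5.83 ± 0.41, adjusted p = 0.00188). For these 3 genes no Cdx2null array came within 4 log2 units of any control, and Myo7b was higher on the array labelled Cdx2null SI SCs 1 than on the other. Alpi, the intestinal alkaline phosphatase, read 9.49, 8.75 and 8.83 against 3.69 and 3.77 and was 39.2-fold lower (adjusted p = 0.000694). Gucy2c, the guanylate cyclase receptor for guanylin and uroguanylin, read 8.28, 9.11 and 7.90 against 4.29 and 3.43 and was 23.8-fold lower (adjusted p = 0.00462). The 12 largest falls also held Far2, Tm4sf20, the microvillus protocadherin Cdhr5, the secreted lectin Reg4, Clca3b, Clrn3 and the Paneth cell defensin Defa24, with differences from -5.0 to -4.43. Where a Cdx2null value lies near 3 to 4, close to the level of absent transcripts, the size of the fold is limited by that level.

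The largest rise was that of Bpifb1. Bpifb1, a secreted protein of mucous glands, read 4.36, 6.37 and 4.50 on the controls and 10.30 and 12.13 on the Cdx2null arrays (6.14 ± 0.74, 70.7-fold, adjusted p = 0.0116). Capn6, a calpain that lacks protease activity, read 4.92, 5.01 and 4.46 against 10.25 and 10.54 (5.60 ± 0.20, adjusted p = 0.00038), the smallest adjusted p of all genes. Tff2, the trefoil peptide of gastric mucous neck and pyloric gland cells, read 6.13, 6.61 and 6.86 against 11.18 and 11.36 and was 26.6-fold higher (adjusted p = 0.000694). Capn6 and Tff2 were nearly equal on the 2 Cdx2null arrays, whereas Bpifb1 was higher on the array labelled Cdx2null SI SCs 2. Muc1, a transmembrane mucin of gastric surface cells, read 6.42, 6.30 and 5.10 against 10.15 and 11.67 (adjusted p = 0.00783). Ltf, lactoferrin, read 5.27, 5.89 and 4.80 against 8.67 and 11.42 (adjusted p = 0.0343), with the array labelled Cdx2null SI SCs 2 again the higher. Cblif, gastric intrinsic factor, went the other way, with 10.56 and 8.99 on the Cdx2null arrays against 5.08, 5.37 and 4.79 on the controls (25.9-fold, adjusted p = 0.00528). The 12 were completed by Cldn18, the tight junction protein with a gastric isoform, the protease inhibitors Serpina3n and Serpinb11, Wdr72, the chitinase Chit1 and the sulfatase Sulf1, with differences from 4.61 to 4.0.

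**Figure D1:**
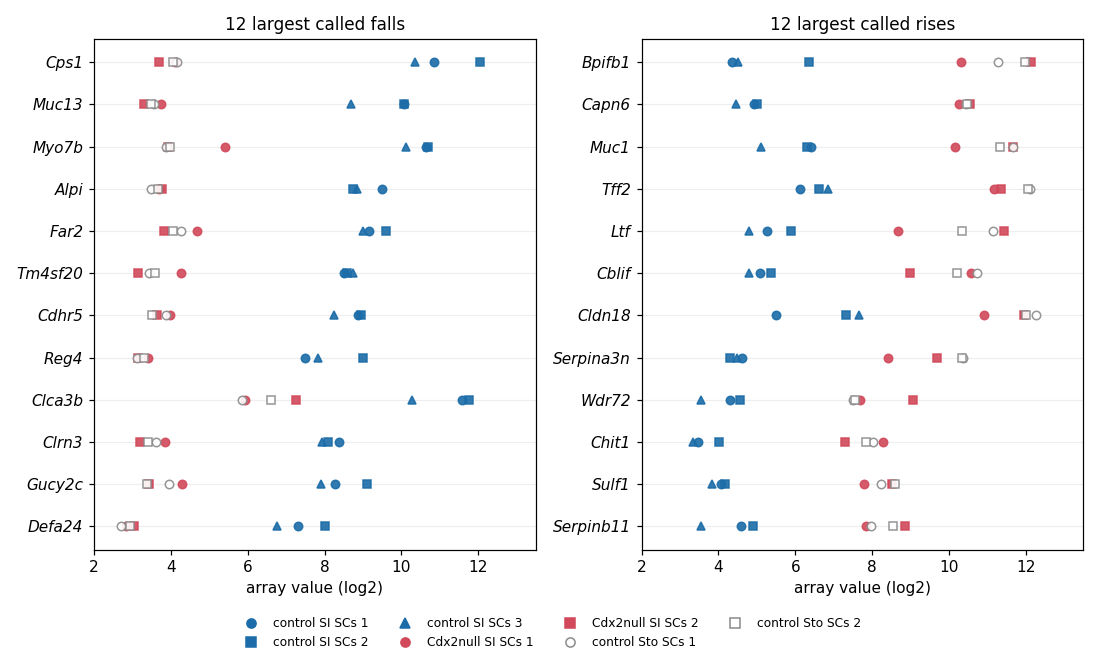
Log2 array values (x axis) of the 12 largest called falls (left) and 12 largest called rises (right), 1 point per array, for 3 control SI SCs (blue), 2 Cdx2null SI SCs (red) and 2 control Sto SCs (open grey). Blue and red points do not overlap for any of the genes, and Bpifb1, Muc1 and Ltf are higher on the square red point, the array labelled Cdx2null SI SCs 2.

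Of these 24 calls, 19 held in all 7 fits that left out 1 stem cell array. Leaving out either control Sto SC array gave the same fit, that of the 5 SI SC arrays alone. The 7 fits are therefore not all distinct, here and below. Clca3b lost its call without control SI SCs 1 (adjusted p = 0.0526), Cldn18 and Serpinb11 without Cdx2null SI SCs 2 (0.133 and 0.0649), and Bpifb1 without Cdx2null SI SCs 2 (0.0649) or control SI SCs 3 (0.0653). Ltf was called only when the array labelled Cdx2null SI SCs 1 was left out, and its adjusted p was 0.0515 without Cdx2null SI SCs 2, 0.123, 0.0659 and 0.138 without control SI SCs 1, 2 and 3, and 0.0577 without the spread of the control Sto SCs. With the array labelled Cdx2null SI SCs 1 left out, the differences were -6.56 for Myo7b, -3.96 for Clca3b, 7.06 for Bpifb1, 5.73 for Muc1, 6.10 for Ltf, 3.91 for Cblif, 5.21 for Serpina3n and 4.92 for Wdr72, and with the array labelled Cdx2null SI SCs 2 left out -5.09, -5.27, 5.23, 4.21, 3.35, 5.48, 3.95 and 3.55. Bpifb1 stood at 6.79 without control SI SCs 2 and Cldn18 at 3.95 without control SI SCs 1. With sex as a term, where control SI SCs 2 is the sole control of the same sex, Muc1, Ltf, Cldn18, Wdr72 and Serpinb11 were no longer called (adjusted p of 0.0625, 0.225, 0.142, 0.0528 and 0.072), and all 12 falls still were. That term moved Cps1 to 284-fold, Reg4 to 52.4-fold, Gucy2c to 38.1-fold, Defa24 to 33.6-fold and Bpifb1 to 28.7-fold.

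Promoter sequences were matched to these calls, because Cdx2 is known to bind AT-rich sites with the core TTTATG or its reverse complement. RefSeq windows from 250 bases before to 50 after the annotated start (GRCm38.p6) were held for 14749 of the tested genes, which included 87 of the genes called lower, with 107 windows, and 128 of those called higher, with 164 windows. TTTATG on either strand occurred in 15.0% of the windows of lower genes (16 of 107, 95% exact binomial interval 8.80 to 23.1%), in 7.32% of those of higher genes (12 of 164, 3.84 to 12.4%) and in 9.34% of all 18155 windows. The related letters TTTATT, which share 5 bases with TTTATG, occurred in 15.9%, 14.6% and 15.2%. CAAAG, the core of the sites of Hnf4 and of Tcf factors, occurred in 68.2% of the windows of lower genes, 47.6% of those of higher genes and 50.2% of all. The GATA site GATAAG occurred in 12.1%, 9.15% and 6.42%, the TATA box letters TATAAA in 15.9%, 12.8% and 11.6%, and the Sox letters ACAAT in 23.4%, 24.4% and 25.7%. Genes with several starts contributed several windows, and a match is a description of letters and not a bound site.

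The 4 genes with the largest falls whose window held TTTATG are shown, together with Sis, the gene of sucrase-isomaltase, whose promoter is a textbook target of Cdx2. Capitals mark TTTATG or its reverse complement, and each window is written 5′ to 3′ on the strand of its gene. Muc13 lies at chr16:33793787-33794086, plus strand, Cdhr5 at chr7:141276737-141277036, minus strand, Clca3b at chr3:144849253-144849552, minus strand, Clrn3 at chr7:135528605-135528904, minus strand and Sis at chr3:72967814-72968113, minus strand.
Muc13: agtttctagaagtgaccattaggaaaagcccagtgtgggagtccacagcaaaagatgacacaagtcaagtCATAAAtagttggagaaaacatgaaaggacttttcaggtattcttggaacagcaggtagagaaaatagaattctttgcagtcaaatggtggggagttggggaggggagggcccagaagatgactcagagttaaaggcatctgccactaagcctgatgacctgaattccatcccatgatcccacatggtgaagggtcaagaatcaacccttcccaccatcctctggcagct
Cdhr5: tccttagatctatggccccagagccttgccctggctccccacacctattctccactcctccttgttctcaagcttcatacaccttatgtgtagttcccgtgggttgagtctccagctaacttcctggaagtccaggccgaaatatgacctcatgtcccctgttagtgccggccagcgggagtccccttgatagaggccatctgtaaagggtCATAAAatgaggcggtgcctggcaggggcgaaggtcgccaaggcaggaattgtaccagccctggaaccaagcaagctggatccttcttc
Clca3b: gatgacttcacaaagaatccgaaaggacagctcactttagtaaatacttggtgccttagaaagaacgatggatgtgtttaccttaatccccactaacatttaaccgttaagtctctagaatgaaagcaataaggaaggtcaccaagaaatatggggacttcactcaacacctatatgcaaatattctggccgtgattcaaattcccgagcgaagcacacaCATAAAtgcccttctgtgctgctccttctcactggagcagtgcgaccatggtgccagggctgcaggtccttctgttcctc
Clrn3: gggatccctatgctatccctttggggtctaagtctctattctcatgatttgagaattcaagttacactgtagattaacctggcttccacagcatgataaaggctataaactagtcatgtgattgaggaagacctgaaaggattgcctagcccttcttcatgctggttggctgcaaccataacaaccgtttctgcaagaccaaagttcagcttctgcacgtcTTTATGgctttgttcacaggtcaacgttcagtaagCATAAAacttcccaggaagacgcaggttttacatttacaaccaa
Sis: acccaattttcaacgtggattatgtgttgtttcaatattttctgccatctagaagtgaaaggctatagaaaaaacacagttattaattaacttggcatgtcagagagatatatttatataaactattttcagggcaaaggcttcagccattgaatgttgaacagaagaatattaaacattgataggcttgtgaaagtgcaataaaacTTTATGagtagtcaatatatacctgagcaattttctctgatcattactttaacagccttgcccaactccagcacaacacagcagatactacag
The match began 39 bases before the start of Cdhr5, 30 before that of Clca3b, 29 before that of Clrn3 and 43 before that of Sis, while in Muc13 it began 180 bases before. Clrn3 held another match that began 6 bases after the start. The differences of these 5 genes were -6.09, -4.88, -4.62, -4.61 and -2.50. Sis read 4.60, 5.61 and 5.71 on the controls and 2.81 and 2.79 on the Cdx2null arrays, without overlap (adjusted p = 0.0143), and its call was lost without Cdx2null SI SCs 1 (0.0585), Cdx2null SI SCs 2 (0.0969) or control SI SCs 3 (0.0569). That of Clca3b was lost without control SI SCs 1 (0.0526).

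The gene lists that follow share members, so their counts are not separate results. Spdef is in the goblet, neck and gastric factor lists, and Bhlha15 in the chief cell and gastric factor lists. Bpifb1 is in the neck and mucosal defence lists, and Muc1 in the pit cell and mucin lists. Over all genes, 0.930% were called higher and 0.595% lower. Among 21 measured intestinal transcription factors, 4 fell and none rose, and their median difference was -0.24 against 0.03 over all genes. Cdx1, the relative of Cdx2, read 7.33, 7.90 and 6.88 on the controls and 4.79 and 4.46 on the Cdx2null arrays (-2.75 ± 0.29, 6.71-fold, adjusted p = 0.00739). Isx, a homeobox repressor of vitamin A uptake genes, read 8.03, 9.33 and 7.33 against 4.02 and 3.86 (-4.29 ± 0.51, adjusted p = 0.0116). Maf read 7.67, 7.77 and 6.89 against 4.88 and 4.35 (-2.83 ± 0.30, adjusted p = 0.00704). On these genes both Cdx2null arrays read under 5, toward the level of absent transcripts. Hnf4g, a nuclear receptor of enterocytes, fell by less, from 8.15, 8.05 and 7.97 to 6.40 and 6.62 (-1.55 ± 0.15, adjusted p = 0.00601), while Hnf4a read 11.31, 11.60 and 10.93 against 10.66 and 10.23 and was not called (adjusted p = 0.179). The endodermal factors Gata4, Gata6, Foxa2, Foxa3, Klf5 and Elf3 had differences between -0.02 and 0.62 and none was called. The calls of Cdx1, Isx and Maf were lost without Cdx2null SI SCs 2 (adjusted p of 0.0585, 0.0821 and 0.0505).

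Of 25 measured intestinal stem cell genes, 4 fell and 21 were not called, and the median difference was -0.15. The Wnt-dependent genes of the crypt base were among those not called: Ascl2 read 9.73, 9.67 and 9.09 on the controls and 9.42 and 9.27 on the Cdx2null arrays, Axin2 9.18, 9.58 and 8.50 against 8.24 and 9.30, and Rnf43 11.68, 11.37 and 10.87 against 11.36 and 11.65. The RNA-binding protein gene Msi1 fell from 8.60, 8.63 and 7.90 to 6.42 and 5.35 (-2.50 ± 0.35, adjusted p = 0.0208). Smoc2, which encodes a matrix-associated calcium-binding protein of crypt base cells, fell from 10.26, 10.72 and 10.06 to 8.38 and 8.44 (-1.94 ± 0.22, adjusted p = 0.00903). Dach1, a transcriptional cofactor, fell from 6.35, 6.38 and 5.58 to 3.64 and 3.65, and Hopx, an atypical homeodomain protein, from 8.91, 8.92 and 9.08 to 7.56 and 6.81 (adjusted p of 0.00699 and 0.0151). Control Sto SCs read 5.64 and 5.78 for Msi1, 3.87 and 3.74 for Dach1, 6.97 and 7.25 for Hopx and 7.65 and 7.94 for Smoc2, which lay below both Cdx2null arrays for Smoc2. Olfm4, the secreted glycoprotein by which intestinal stem cells are often told from gastric ones, read 7.35, 9.23 and 6.33 against 3.79 and 3.70. The groups did not overlap, but the controls spread widely and the difference of -3.89 ± 0.73 was not called (adjusted p = 0.0617). Without control SI SCs 2 it was called, at 0.0177, and also without control SI SCs 3, at 0.0477. The calls of Dach1, Smoc2, Msi1 and Hopx were lost without Cdx2null SI SCs 2 (0.0505, 0.0643, 0.0846 and 0.0563), that of Msi1 also without control SI SCs 1 (0.0869) or 2 (0.0634), and that of Hopx without control SI SCs 1 (0.0619) or 3 (0.0699).

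**Figure D2:**
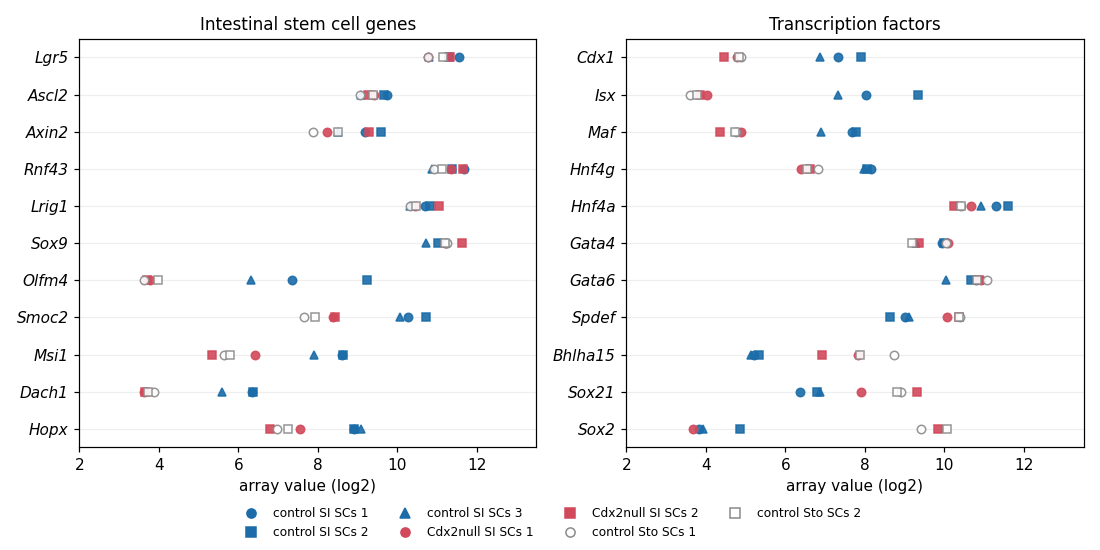
Log2 array values (x axis) of intestinal stem cell genes (left) and transcription factors (right), 1 point per array, coloured by group as in the plot of the largest falls and rises. Lgr5, Ascl2, Axin2, Rnf43 and Gata4 overlap between groups, Cdx1, Isx and Maf separate red from blue, and Sox2 is high on only 1 of the 2 red points.

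The genes of the enterocyte surface and of absorption fell in small numbers from every list, with the structural genes of the brush border divided. Of 17 measured brush border genes 4 fell and none rose (median -0.59). Ush1c, the scaffold on which the microvillus links assemble, fell from 7.36, 8.44 and 7.40 to 3.91 and 3.59 (-3.98 ± 0.34, adjusted p = 0.0035), and Cdhr5 from 8.86, 8.94 and 8.24 to 3.97 and 3.63 (-4.88 ± 0.25, adjusted p = 0.000807). Together with Myo7b and Calml4, which is the light chain of that myosin, the 4 called members all belong to the complex that links microvilli at their tips. The actin bundlers and membrane linkers of the same list were not called, with 10.44, 10.87 and 10.11 against 10.54 and 10.48 for villin (Vil1) and 11.37, 11.73 and 10.88 against 11.19 and 11.53 for ezrin (Ezr). Cdhr2, the partner of Cdhr5, read 7.75, 9.05 and 7.89 against 7.12 and 4.94, with only the array labelled Cdx2null SI SCs 2 far from the controls (adjusted p = 0.215). Calml4 (adjusted p = 0.0203) lost its call in 4 of the 7 fits that left out 1 array, at 0.0645 without Cdx2null SI SCs 1 and at 0.0681, 0.0547 and 0.0699 without control SI SCs 1, 2 and 3.

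Of 18 digestive hydrolases Alpi and Sis fell and the other 16 were not called (median -0.39). The maltase-glucoamylase gene Mgam read 11.32, 11.32 and 10.64 on the controls and 10.52 and 8.47 on the Cdx2null arrays (adjusted p = 0.476), and the peptidase gene Dpp4 8.06, 8.54 and 8.43 against 7.13 and 6.66 (adjusted p = 0.39). Of 29 nutrient transporters, Slc5a1, the sodium-glucose transporter, fell from 8.41, 10.17 and 8.50 to 5.22 and 4.88 (-3.98 ± 0.51, adjusted p = 0.0143), and Slc10a2, the ileal bile acid transporter, rose from 3.48, 3.36 and 3.02 to 4.85 and 5.73 (2.0 ± 0.29, adjusted p = 0.0224). Among 20 genes of lipid absorption 3 fell: Fabp2, the intestinal fatty acid binding protein, from 5.77, 6.85 and 6.77 to 3.64 and 3.28, Apoa1 from 6.28, 8.12 and 7.70 to 4.29 and 4.19 and Apoc2 from 6.76, 7.77 and 7.24 to 4.87 and 4.26 (adjusted p of 0.00903, 0.032 and 0.0138). Apob, the structural protein of chylomicrons, stayed at 9.39 on the array labelled Cdx2null SI SCs 1 and read 6.22 on the other, against 10.01, 9.70 and 9.38 on the controls, and was not called. Of 9 measured genes of the urea cycle and arginine synthesis only Cps1 was called (median -0.71). The calls of Slc5a1, Slc10a2, Fabp2 and Apoc2 were lost without Cdx2null SI SCs 2 (0.102, 0.0916, 0.0711 and 0.094), those of Slc10a2 and Apoc2 also without control SI SCs 3 (0.0887 and 0.0682), and that of Slc10a2 without control SI SCs 1 or 2 (0.0689 and 0.0609). Apoa1 was called in only 1 of the 7 fits with an array left out, that without control SI SCs 1, with adjusted p of 0.103 and 0.189 without Cdx2null SI SCs 1 and 2, 0.0575 and 0.133 without control SI SCs 2 and 3, and 0.0581 without the control Sto SCs.

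Of 23 measured xenobiotic enzymes 5 fell and none rose, with a median of -0.84, where 0.595% of all genes were called lower. The carboxylesterase Ces2e fell from 8.41, 8.09 and 8.67 to 4.52 and 3.98 (17.6-fold, adjusted p = 0.00116). The cytochrome P450 genes Cyp2c55 and Cyp2c65 fell from 5.36, 5.68 and 5.46 to 2.85 and 2.94 and from 7.06, 6.09 and 6.94 to 3.42 and 3.24 (adjusted p of 0.00116 and 0.00504). On all 3 genes the Cdx2null arrays were within 1 log2 unit of each other and far from the controls. Cyp2d26 (-2.69 ± 0.27) and Cyp2c66 (-2.72 ± 0.30) completed the set, and Cyp2c66 lost its call without Cdx2null SI SCs 2 (adjusted p = 0.0655). Members of the Cyp2c family are similar in sequence, so part of their signal may be shared. Nr1i2, the xenobiotic receptor PXR, read 8.78, 9.08 and 8.22 against 8.0 and 6.68 and was not called (adjusted p = 0.243).

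The secretory lineages of the intestine gave both falls and rises. Of 16 goblet cell genes Tff3, the intestinal trefoil peptide, fell from 8.05, 8.95 and 8.26 to 4.47 and 4.41 (15.8-fold, adjusted p = 0.00182). Muc2, the main intestinal gel-forming mucin, read 7.64, 8.49 and 7.24 against 5.08 and 5.77, without overlap but not called (adjusted p = 0.103), and Zg16 read 7.26, 5.83 and 8.55 against 3.96 and 3.68 (adjusted p = 0.0751). In the same list 2 genes rose, the transcription factor Spdef from 9.02, 8.64 and 9.11 to 10.06 and 10.38 and Bcas1 from 7.30, 7.28 and 7.12 to 8.65 and 8.30 (adjusted p of 0.0229 and 0.0151), and both genes are also expressed by gastric mucous cells. Among 11 measured Paneth cell genes 3 fell. Defa24 fell from 7.32, 8.01 and 6.77 to 2.84 and 3.03 (21.6-fold, adjusted p = 0.00226), the ribonuclease Ang4 from 5.97, 6.23 and 6.65 to 4.18 and 4.08 and the lectin Reg3b from 9.04, 8.20 and 7.16 to 4.85 and 5.04 (adjusted p of 0.00601 and 0.0279). Defensin genes are close copies of one another, so the Defa24 probe set may read several of them. In contrast, Lyz1, the lysozyme of Paneth cells, read 6.48, 9.55 and 8.18 against 7.29 and 11.82, with the array labelled Cdx2null SI SCs 2 above every control. Of 24 enteroendocrine genes only Cpe, a prohormone-processing peptidase, was called (2.03 ± 0.33, adjusted p = 0.0349), and of 14 tuft cell genes only Dclk1 (2.56 ± 0.42, adjusted p = 0.0378). With 0.930% of all genes called higher, a single call says little about either list.

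Several of these calls rested on particular arrays. Without Cdx2null SI SCs 1 the adjusted p was 0.0703 for Bcas1, 0.105 for Reg3b, 0.0751 for Cpe and 0.108 for Dclk1, and without Cdx2null SI SCs 2 it was 0.173 for Spdef and 0.146 for Reg3b. Without control SI SCs 1 it was 0.0758 for Spdef, 0.0595 for Bcas1 and 0.112 for Cpe. Without control SI SCs 2 it was 0.0814 for Reg3b, 0.0591 for Cpe and 0.0863 for Dclk1, and without control SI SCs 3 it was 0.0522, 0.122 and 0.145 for Bcas1, Cpe and Dclk1. The spread of the control Sto SCs also entered the fit, and without it Spdef (0.054), Reg3b (0.0517), Cpe (0.0684) and Dclk1 (0.0731) were not called. The difference of Dclk1 was 1.96 without Cdx2null SI SCs 1 and 3.16 without Cdx2null SI SCs 2.

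Genes of gastric glands rose, in the mucous and chief cell lists. Of 14 genes of gastric pit cells, the mucous cells of the surface, 4 rose and none fell (median 1.06, against 0.03 over all genes). Ctse, cathepsin E, rose from 10.40, 9.40 and 8.85 to 12.19 and 12.13, Anxa10 from 6.33, 6.58 and 6.02 to 9.64 and 8.63 and the gastrokine Gkn1 from 4.77, 4.28 and 4.28 to 5.96 and 5.87 (adjusted p of 0.0294, 0.0143 and 0.0138), beside Muc1. Muc5ac, the gel-forming mucin that defines pit cells, lay between 3.52 and 3.70 on all 5 arrays, and Tff1, its trefoil partner, read 5.63, 5.18 and 5.15 against 7.32 and 5.98 (adjusted p = 0.198). The defining mucin of the list was thus near the level of absent transcripts in either group, and control Sto SCs read 4.60 and 4.45.

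Of 10 genes of mucous neck and pyloric gland cells 3 rose (median 1.14), and these were Tff2, Bpifb1 and Spdef. Muc6, the gland mucin, was already high in the controls, at 11.05, 9.66 and 10.41, and read 12.34 and 12.49 on the Cdx2null arrays, without overlap but not called (2.04 ± 0.37, adjusted p = 0.0527). It was called without control SI SCs 1 (adjusted p = 0.0286) or control SI SCs 2 (0.0431). Aqp5 and Gkn3 were likewise high on every array, at 11.87, 11.96 and 11.69 against 12.10 and 12.25 and 11.85, 11.37 and 11.77 against 12.46 and 12.51. Signal of these 3 neck and pyloric markers was therefore present in the control SI SCs.

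Of 10 measured genes of zymogenic chief cells 4 rose (median 1.08). Cym, chymosin, rose from 7.98, 7.80 and 8.60 to 11.49 and 11.94 (3.59 ± 0.26, 12-fold, adjusted p = 0.00209). Bhlha15, the factor MIST1 that builds secretory granules, rose from 5.20, 5.34 and 5.13 to 7.83 and 6.93 and its target Rab3d from 9.18, 8.99 and 9.18 to 10.44 and 10.20 (adjusted p of 0.0281 and 0.0275), and Cblif was given above. The digestive enzymes of adult chief cells did not join them: Pga5 and Lipf lay between 2.71 and 3.68 on all 5 arrays. Pgc read 9.47, 6.70 and 9.73 on the controls and 11.17 and 8.07 on the Cdx2null arrays, with the array labelled Cdx2null SI SCs 1 the higher by 8.6-fold. None of 15 parietal cell genes was called (median 0.17), and the proton pump genes Atp4a and Atp4b had differences of 0.23 and -0.21. Control Sto SCs read 6.29 and 6.58 for Atp4a and 4.18 and 4.14 for Atp4b, and overlapped the Cdx2null arrays on both. Kcnj15, a potassium channel of that list, read 3.75, 4.29 and 3.64 against 6.50 and 10.47 and Slc26a9 8.64, 6.68 and 7.35 against 10.63 and 10.06, both without overlap and not called (adjusted p of 0.0952 and 0.0602).

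Among these gastric genes Muc1, Tff2, Cblif and Cym kept their calls in all 7 fits that left out 1 array. Without Cdx2null SI SCs 1 the calls of Ctse (0.106), Gkn1 (0.0648), Bhlha15 (0.0847) and Rab3d (0.124) were lost, and without Cdx2null SI SCs 2 those of Ctse (0.166), Gkn1 (0.0865), Rab3d (0.109), Bpifb1 (0.0649) and Spdef (0.173). Without control SI SCs 1, 2 and 3 the adjusted p of Bhlha15 was 0.106, 0.0704 and 0.119 and that of Rab3d 0.0921, 0.076 and 0.0769, while Anxa10 was lost without control SI SCs 1 (0.0619) or 3 (0.0713), Ctse without control SI SCs 2 (0.0856) or 3 (0.0603), Spdef without control SI SCs 1 (0.0758) and Bpifb1 without control SI SCs 3 (0.0653). Without the spread of the control Sto SCs, Ctse (0.0581) and Spdef (0.054) were not called.

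**Figure D3:**
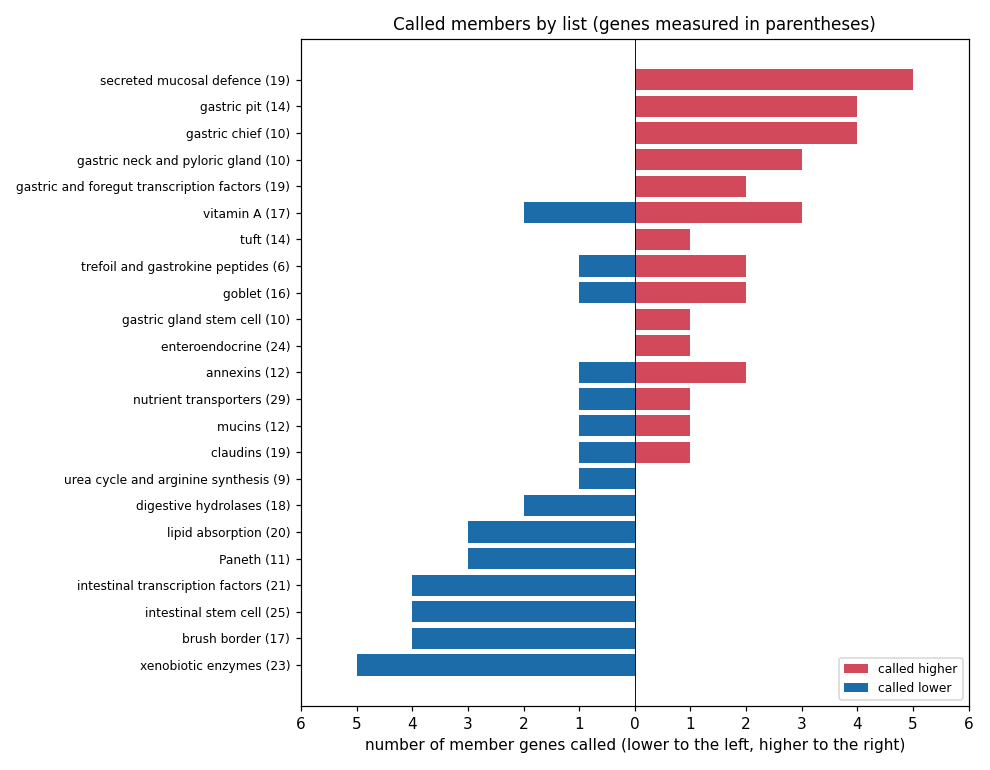
Number of genes called higher (red, to the right) and lower (blue, to the left) in Cdx2null SI SCs for the gene lists with at least 1 call, with the number of measured members in parentheses. Xenobiotic enzymes extend farthest to the left (5 of 23) and secreted mucosal defence farthest to the right (5 of 19), no gastric list holds a fall, and the enteroendocrine and tuft lists hold 1 rise each. Some genes belong to more than 1 list, and the lists of markers named in the study are not drawn.

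Of 19 measured gastric and foregut transcription factors, only Spdef and Bhlha15 were called (median 0.30). Sox21 read 6.36, 6.80 and 6.87 on the controls and 7.91 and 9.32 on the Cdx2null arrays, without overlap (adjusted p = 0.0757), and Runx1 9.98, 9.34 and 8.74 against 10.30 and 10.81 (adjusted p = 0.209). Pdx1, the factor of duodenum and gastric antrum, read 7.99, 7.19 and 7.0 against 8.51 and 6.88 and overlapped. The antral factor Nkx6-3 was at 4.43 and 4.90 on the Cdx2null arrays and 4.57, 5.44 and 3.92 on the controls, but at 9.11 and 8.08 on control Sto SCs, so on this gene neither Cdx2null array was at the stomach level. Both calls were fragile, since Spdef was lost without Cdx2null SI SCs 2 (0.173) or control SI SCs 1 (0.0758) or the control Sto SCs (0.054), and Bhlha15 without Cdx2null SI SCs 1 (0.0847) or any of control SI SCs 1, 2 and 3 (0.106, 0.0704 and 0.119).

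Within several gene families 1 member fell as another rose. Among 12 mucins Muc13 fell and Muc1 rose. Among 6 trefoil and gastrokine peptides Tff3 fell and Tff2 and Gkn1 rose. Among 19 claudins, the proteins of tight junctions, Cldn15, which forms a cation pore in the intestine, fell from 9.03, 10.35 and 8.36 to 5.07 and 5.01 (-4.21 ± 0.51, adjusted p = 0.0119) and Cldn18 rose from 5.49, 7.31 and 7.65 to 10.91 and 11.95 (4.61 ± 0.64, adjusted p = 0.019). Among 12 annexins, Anxa13 fell from 6.96, 8.52 and 6.89 to 3.95 and 3.24 and Anxa8 rose from 6.88, 6.93 and 6.22 to 10.34 and 9.37 (adjusted p of 0.0143 and 0.00912), beside Anxa10. The remaining members of each family were not called, and the family medians lay between 0.04 and 1.10. Cldn15, Cldn18 and Anxa13 were not called without Cdx2null SI SCs 2 (0.0826, 0.133 and 0.102), Gkn1 without either Cdx2null array (0.0648 and 0.0865), and Anxa10 without control SI SCs 1 (0.0619) or 3 (0.0713).

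Vitamin A handling showed the same kind of division, with 2 of 17 measured genes lower and 3 higher (median -0.16). Rbp2, the intracellular retinol carrier of enterocytes, fell from 6.71, 7.31 and 6.65 to 4.47 and 4.36 (-2.48 ± 0.23, adjusted p = 0.00504). Lrat, the enzyme that esterifies retinol, fell from 6.34, 5.91 and 5.75 to 3.90 and 3.25 (-2.43 ± 0.25, adjusted p = 0.00704). Stra6, the receptor that takes up retinol from plasma carrier protein, rose from 7.05, 7.37 and 6.53 to 10.54 and 9.95 (3.26 ± 0.46, adjusted p = 0.0197). The members that fell handle dietary retinol in enterocytes. Aldh1a1, which makes retinoic acid, rose from 7.93, 8.55 and 8.36 to 9.88 and 10.97, and Dhrs3, which reduces retinaldehyde, from 8.96, 9.35 and 8.60 to 10.24 and 10.45 (adjusted p of 0.029 and 0.0432). Both falls held in all 7 fits that left out an array. The 3 rises did not: without Cdx2null SI SCs 2 the adjusted p was 0.0826, 0.0895 and 0.271 for Stra6, Aldh1a1 and Dhrs3, without control SI SCs 1 it was 0.0785, 0.0982 and 0.141, without control SI SCs 3 it was 0.087, 0.11 and 0.0782, without Cdx2null SI SCs 1 it was 0.0855 for Stra6 and 0.108 for Dhrs3, and without control SI SCs 2 it was 0.0558 for Aldh1a1. Without the control Sto SCs it was 0.0581 for Aldh1a1 and 0.0777 for Dhrs3.

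Secreted genes of mucosal defence rose in 5 of 19 measured members and fell in none (median 0.71). Serpina3n, an acute-phase protease inhibitor, rose from 4.61, 4.29 and 4.49 to 8.41 and 9.68 (23.9-fold, adjusted p = 0.00224). Clu, clusterin, was already high and rose from 11.87, 11.55 and 11.46 to 12.57 and 12.69 (1.01 ± 0.16, adjusted p = 0.0357), and the chemokine Cxcl5 rose from 4.04, 4.01 and 3.49 to 6.23 and 5.57 (2.06 ± 0.33, adjusted p = 0.0353). Lcn2, lipocalin 2, read 8.62, 8.10 and 7.16 against 9.88 and 11.13 and Cxcl17, a mucosal chemokine, 5.18, 5.40 and 4.98 against 6.55 and 10.13. Neither overlapped and neither was called (adjusted p of 0.0702 and 0.193), Cxcl17 being much higher on the array labelled Cdx2null SI SCs 2. The genes of neutrophil granules S100a8 and S100a9 lay between 3.00 and 4.07 on all 5 arrays. Serpina3n alone held in every fit with an array left out, while Clu and Cxcl5 were lost without Cdx2null SI SCs 1 (0.104 and 0.136) or 2 (0.249 and 0.083), control SI SCs 2 (0.0929 and 0.0782) or 3 (0.0812 and 0.121), Cxcl5 also without control SI SCs 1 (0.0981), Clu also without the control Sto SCs (0.082), and Bpifb1 and Ltf as described with the largest rises.

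Sex as a term in the fit, which sets the Cdx2null arrays against control SI SCs 2 alone, ended 27 of the 68 calls of named genes. Among intestinal genes these were Msi1, Hopx, Calml4, Sis, Lrat, Reg3b, Cyp2c66 and Slc10a2, with adjusted p from 0.0525 to 0.148. Among gastric and secreted genes they included Gkn1 (0.0508), Anxa10 (0.109), Ctse (0.139), Rab3d (0.0955) and Bhlha15 (0.18). The rest were Stra6, Aldh1a1, Dhrs3, Bcas1, Cpe, Dclk1, Anxa8, Cxcl5 and Clu, besides the 5 genes named with the largest rises. Quantile normalisation ended 5 calls of named genes, those of Spdef, Cpe, Rab3d, Cxcl5 and Clu, and centring on array medians ended that of Clu. The sex term moved 7 other called values by over 1.5 times, to 42.0-fold for Isx, 25.8-fold for Ush1c, 34.8-fold for Slc5a1, 14.7-fold for Apoa1, 39.6-fold for Cldn15, 30.4-fold for Anxa13 and 6.81-fold for Cyp2c65, and Olfm4 (0.00625), Clca4b (0.0317) and Muc6 (0.0185) were then called. Group and sex cannot be told apart for the 2 male controls.

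Of 10 measured genes of gastric gland stem cells, 1 rose (Bhlha15, given above) and 9 were not called (median 0.14). The other remaining lists held no call in either direction. They covered Wnt targets (16 genes, median 0.11), the Notch pathway (16, -0.12), the hedgehog pathway (9, 0.07), targets of Fgf and MAPK (15, 0.03), the EGF family (13, 0.01), Hox genes (32, -0.18), glycosyltransferases (26, 0.07), cell adhesion (14, 0.00), cholesterol synthesis (13, 0.10), the interferon response (16, 0.01) and housekeeping genes (14, -0.02). Proliferation genes (23) had a median of -0.26, and all 23 differences were negative, from -0.67 to -0.07. Their mean level was 9.94, 10.21 and 9.64 on the controls and 9.67 and 9.64 on the Cdx2null arrays. The groups thus overlapped only through control SI SCs 3, whose upper quartile of 7.50 was under that of every other stem cell array. Control SI SCs 1 and 2 lay above both Cdx2null arrays. Both Cdx2null arrays lay below all controls for 4 of the 23, against 9.52% of all genes. For folding in the endoplasmic reticulum, 14 of 19 members were above all controls on both Cdx2null arrays, against 15.4% of all genes, with a median of 0.43 and no adjusted p under 0.0820. Immediate-early genes that respond to tissue dissociation (14) had a median of -0.06. At an unadjusted p under 0.05, which 11.6% of all genes reached, these lists held 1 Wnt target, 3 Notch genes, 2 targets of Fgf and MAPK, 1 gene of the EGF family, 11 glycosyltransferases, 4 adhesion genes, 2 interferon response genes, 1 proliferation gene, 6 folding genes and 2 dissociation genes, and 0 in the hedgehog, Hox, cholesterol and housekeeping lists. A missing call does not show that the members were equal.

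The 2 Cdx2null arrays differed from each other in more than Cdx2. At least 2-fold differences between them were found for 749 genes, against 391, 492 and 1280 for the 3 pairs of control SI SCs and 464 for the control Sto SC pair. The widest control pair, 2 and 3, contained the array that was exported differently and arrays of either sex. On the array labelled Cdx2null SI SCs 1 alone, 542 genes (2.88%) were at least 2-fold above the control mean and above every control, and 324 (1.72%) were correspondingly below. On the array labelled Cdx2null SI SCs 2 the same counts were 867 (4.61%) and 458 (2.43%). Of these, 342 genes were above on both arrays, 222 were below on both and 17 went in opposite directions. Of the 287 called genes, 272 were at least 2-fold from the control mean on each array and 32 differed 2-fold or more between the arrays. The array labelled Cdx2null SI SCs 2 was the farther from the controls for 101 of the 175 higher and 84 of the 112 lower genes.

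**Figure D4:**
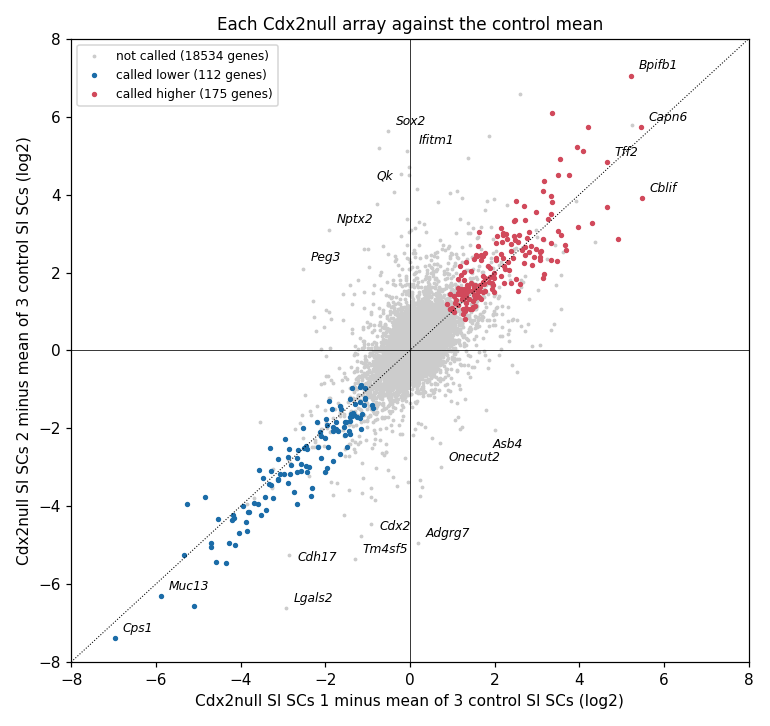
Difference from the mean of the 3 control SI SCs (log2) on the array labelled Cdx2null SI SCs 1 (x axis) and on the array labelled Cdx2null SI SCs 2 (y axis), 1 point per gene, with genes called lower in blue and higher in red. Both axes share the same control mean, the dotted line marks equal differences, and Sox2 and Adgrg7 lie near 0 on the x axis and at 5.63 and -4.95 on the y axis.

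Fits that kept 1 Cdx2null array, whose spread was assumed to equal that of the other groups, called 320 genes (1.70%) with the array labelled Cdx2null SI SCs 2 and 131 (0.696%) with the array labelled Cdx2null SI SCs 1. In both of these fits 96 genes were called in the same direction, and 93 of them were among the 287.

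Genes that stayed at or near the control level on the array labelled Cdx2null SI SCs 1 and were low on the other included the following. Adgrg7, an adhesion receptor of the intestine, read 11.34, 10.92 and 10.89 on the controls and 11.25 and 6.10 on the 2 Cdx2null arrays, a 35.5-fold difference between these. Tm4sf5 read 10.35, 10.72 and 9.89 against 9.02 and 4.97, and Onecut2, a transcription factor of the proximal intestine, 10.13, 9.80 and 8.67 against 10.27 and 6.54. On these 3 genes the array labelled Cdx2null SI SCs 2 was within 1.5 log2 units of at least 1 control Sto SC array, as it was for Cdx2. Cdh17, the liver-intestine cadherin, read 11.31, 11.51 and 11.09 against 8.44 and 6.04, and Lgals2, a galectin of enterocytes, 12.03, 11.82 and 12.01 against 9.03 and 5.33. For the latter genes the array labelled Cdx2null SI SCs 1 was between the controls and the other array. Asb4 differed in sign, at 2.02 and -2.03 from the control mean on the 2 arrays, and Aim2, Fam234b and Lypd8 completed the 8 genes with the largest differences in this direction, to which Cdh17 does not belong. None of them was called with both arrays (adjusted p from 0.0712 to 0.999). With the array labelled Cdx2null SI SCs 1 left out, the differences were -4.95 for Adgrg7, -5.35 for Tm4sf5 and -3.74 for Aim2. They were -3.51 for Fam234b, -4.76 for Lypd8, -6.62 for Lgals2 and -5.26 for Cdh17. Lgals2 stood at -2.92 with the other array left out. The 8 genes were chosen for the gap between the 2 Cdx2null arrays, so these values repeat that choice and are no further support.

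Genes far higher on the array labelled Cdx2null SI SCs 2 than on the array labelled Cdx2null SI SCs 1 included Sox2, a transcription factor of the stomach and oesophagus. Sox2 read 3.82, 4.85 and 3.93 on the controls, 3.68 on the array labelled Cdx2null SI SCs 1 and 9.83 on the array labelled Cdx2null SI SCs 2, against 9.40 and 10.07 on control Sto SCs. The 70.7-fold gap between the Cdx2null arrays was the widest among the genes of either direction. Ifitm1, an interferon-induced membrane protein, read 4.78 and 9.99 on the 2 arrays and 4.84, 5.04 and 4.69 on the controls, and Qk, an RNA-binding protein, 3.82 and 8.57 and 3.76, 4.20 and 4.15. Nptx2 and Peg3 were below the control mean on the array labelled Cdx2null SI SCs 1 and above it on the other, with differences of -1.92 and 3.10 and -2.53 and 2.09. Peg3 is an imprinted gene and read 8.07, 8.22 and 4.02 on the controls, so control SI SCs 3 was also low. Alox12e, Crnde and Lyz1 completed the 8. Several of these genes also separated control Sto SCs 1 and 2, with replicate number 2 the higher. They were Ifitm1 (7.11 and 10.25), Alox12e (4.27 and 8.79), Crnde (3.32 and 7.25) and Lyz1 (5.6 and 10.76). For Sox2, Nptx2, Qk and Peg3 the 2 control Sto SC arrays lay close together. This pattern was not tested. Sox2 was not called with both arrays (adjusted p = 0.635). With the array labelled Cdx2null SI SCs 1 left out, the differences were 5.63 for Sox2, 4.54 for Qk and 3.10 for Nptx2. These genes too were chosen for the gap between the 2 Cdx2null arrays, so the values repeat that choice.

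**Figure D5:**
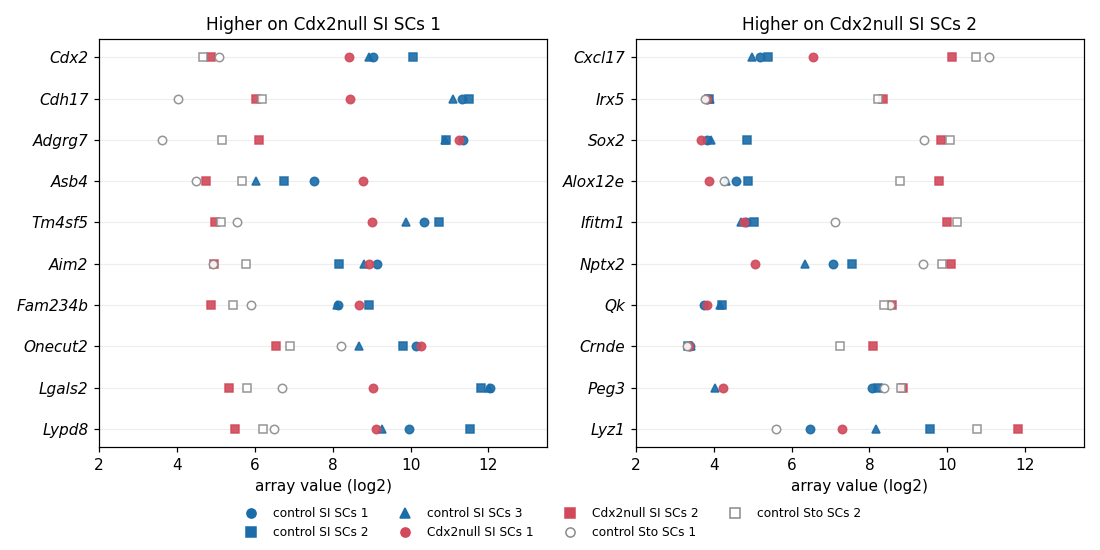
Log2 array values (x axis) of genes higher on the array labelled Cdx2null SI SCs 1 (left, red circles) or Cdx2null SI SCs 2 (right, red squares), with Cdx2, Cdh17, Cxcl17 and Irx5 added, beside 3 control SI SCs (blue) and 2 control Sto SCs (open grey). Red circles lie with the blue points for Adgrg7 and Onecut2, and red squares with the grey points for Sox2 and Qk. The 2 grey points lie apart for Alox12e, Crnde, Lyz1, Ifitm1 and Irx5, with the grey square the higher.

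The markers named in the study were taken up with its results known, so their counts are not independent evidence of direction. The study scored many of them by staining or PCR of whole organoids, some in differentiation medium. A missing call on sorted cells therefore does not test those results. Of its 16 intestinal markers 8 fell (Alpi, Muc13, Reg4, Tff3, Cdx1, Msi1, Dach1 and Smoc2). The 8 not called were Olfm4, Muc2, Cdh17, Clca4a, Clca4b, Cdca7, Vil1 and Lyz1. Both Cdx2null arrays lay below all controls for 14 of the 16, against 9.52% of all genes. Of its 12 gastric markers 4 rose (Cblif, Cldn18, Muc1 and Tff2), while Muc6, Pgc, Muc5ac, Atp4a, Atp4b, Gast, Shh and Col11a2 were not called. Both Cdx2null arrays lay above all controls for 6 of the 12, against 15.4% of all genes. Gast and Shh lay between 3.57 and 4.99 on all 5 arrays. On control Sto SCs 1 and 2 Muc5ac read 4.60 and 4.45, Gast 4.77 and 4.35 and Shh 3.60 and 3.96. Col11a2 read 5.41 and 5.34 there, Atp4a 6.29 and 6.58 and Atp4b 4.18 and 4.14. Muc6 read 12.65 and 12.44 and Pgc 9.71 and 9.84. The Cdx2null and control Sto SC arrays overlapped on all of these but Muc5ac and Col11a2, on which both Cdx2null arrays were lower. Among the 12 called markers, those of Cdx1, Dach1, Smoc2, Msi1 and Cldn18 were lost without Cdx2null SI SCs 2, at adjusted p of 0.0585, 0.0505, 0.0643, 0.0846 and 0.133, and that of Msi1 also without control SI SCs 1 (0.0869) or 2 (0.0634).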

How the data were processed

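The authors summarised each array with RMA-sketch and deposited log2 probe set values, which were used as given. The tool version and annotation are not given in the sources used here. Of 35556 probe sets, 21219 had 1 gene symbol, 1880 had several and 12457 had none listed. The probe set of highest mean over the 14 arrays stood for its gene. Control SI SCs, Cdx2null SI SCs and control Sto SCs (7 arrays) were fitted together with limma 3.58.1 in R 4.3.3, without covariates, and p-values were adjusted by Benjamini-Hochberg over 18821 genes. The code was tested on simulated data. Array number limits the precision.

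Genes, lists and the parts of the comparison were chosen with earlier results of these data known. Named are Cdx2, Cdx1 and Lgr5, the 12 largest called falls and rises without overlap, up to 5 called list members per direction and members given as not called, 8 genes per direction that differ most between the Cdx2null arrays, and the study's markers. Alternatives changed the arrays, scaling, probe sets, test, weights, sex and replicate number.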

Additional observations from a re-analysis of the deposited data

How the results depend on the processing

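None of the 287 called genes changed direction under the alternatives that tested it. Both Cdx2null arrays lay outside the control range for all 287. Leaving out, blocking or reweighting arrays or adding the sex term therefore could not reverse a sign, and those fits are no evidence on direction. The number called was 473 (259 higher, 214 lower) with array weights, and 458 (252 higher, 206 lower) with arrays centred on their medians, which shifted the median of all genes from 0.03 to -0.10. It was 327 (172 and 155) after quantile normalisation, 241 (150 and 91) with the 5 SI SC arrays alone, 354 (218 and 136) with limma's trend and robust options, 281 (173 and 108) with the mean of a gene's probe sets and 289 (212 and 77) among the 9410 brighter genes. The methods' t-test called 498 genes (317 and 181) unadjusted and 0 after Benjamini-Hochberg, where 1264 genes had an unadjusted p under 0.05. A sex term, equal to a comparison with control SI SCs 2 alone, gave 207 (69 and 138), so that 33.3% of calls were higher instead of 61.0%. Leaving out 1 array gave 131 (without Cdx2null SI SCs 2) to 320 (without Cdx2null SI SCs 1), with 79 to 190 higher and 52 to 130 lower. Without control SI SCs 1 it was 184 and without control SI SCs 3 it was 185, of which 93 were higher (50.3%). In all 7 of these fits 82 of the 287 genes were called, and 71 of them also with the sex term. As a replicate block the label numbers gave 228 calls (117 and 111), 172 of them among the 287. It ended 19 of 68 calls of named genes, such as Anxa8 (adjusted p = 0.0551), Anxa13 (0.0571), Fabp2 (0.0509), Sis (0.0542) and Anxa10 (0.0526), and gave calls to Olfm4 (0.0412) and Muc2 (0.0253). Arrays with the same number deviated together with r of 0.23 to 0.38 over genes, but with only 2 numbers and no statement in the labels they were not taken as pairs. For named genes and alternatives, the side of the threshold was kept in 1491 of 1781 values, lost in 248 and gained in 42. This total counts the fit of the 5 SI SC arrays more than once, since leaving out either control Sto SC array gave it again. The causes were not tested. Counts for single Cdx2null arrays stayed within 1.5 times. In the 250 bases before the start, motif shares of genes called lower or higher stayed within their intervals. Shares of all genes fell below their intervals for every motif. For CAAAG it was 45.5% against 49.5 to 51.0%, and for TTTATG 8.63% against 8.92 to 9.77%. Values close to 3 limit the fold of the genes that fell.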

Other observations

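The genes of this and the next paragraph were chosen after their values were seen, and apart from fibroblast markers set beside them they belong to none of the lists. Genes of the extracellular matrix and of signalling at the cell surface were among the rises. Fn1, fibronectin, read 9.04, 9.29 and 8.16 on control SI SCs 1, 2 and 3 and 11.22 and 11.39 on the arrays labelled Cdx2null SI SCs 1 and 2 (adjusted p = 0.0318). Pcolce, an enhancer of procollagen processing, read 7.0, 6.78 and 6.55 against 9.25 and 9.60, and the metalloproteinase inhibitors Timp1 and Timp2 5.42, 5.51 and 4.90 against 7.43 and 7.19 and 8.24, 7.93 and 7.88 against 9.75 and 9.51. The fibroblast markers Col1a1 and Col3a1 were not called, at 5.41, 5.33 and 5.21 against 5.27 and 5.22 and 4.58, 4.55 and 4.60 against 4.55 and 4.50. The gap junction gene Gja1 read 4.64, 5.22 and 4.36 against 9.04 and 8.02 (13.8-fold), the cytokine receptor Osmr 5.64, 6.06 and 5.18 against 8.95 and 8.39, and the ligands Tgfb3 and Fgf9 rose by 3.42 ± 0.53 and 2.14 ± 0.26. The call of Fn1 was lost without Cdx2null SI SCs 1 (0.0966) or 2 (0.197) or control SI SCs 1 (0.0943) or 3 (0.0653), that of Tgfb3 without Cdx2null SI SCs 1 (0.0951) or 2 (0.181) or control SI SCs 2 (0.076) or 3 (0.126), and that of Fgf9 without Cdx2null SI SCs 2 (0.0616) or control SI SCs 1 (0.0565) or 3 (0.0549). With sex as a term the adjusted p was 0.206, 0.0741 and 0.0782 for Fn1, Tgfb3 and Fgf9 and 0.0502 for Timp1.

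Falls outside the lists included the chemokines Ccl25, which recruits lymphocytes to the small intestine, from 9.06, 8.59 and 8.80 to 5.71 and 6.03, and Ccl28, from 8.59, 8.77 and 8.06 to 5.35 and 5.15 (adjusted p of 0.00139 and 0.00231). Myb, a transcription factor of proliferating progenitors, fell from 9.64, 9.82 and 9.02 to 6.61 and 6.09. No proliferation gene was called. All 23 measured differences of that list were negative. Its mean level overlapped between the groups only through control SI SCs 3, the array exported differently, which was at the level of the Cdx2null arrays. Prkg2, the kinase that acts after Gucy2c, differed by -3.51 ± 0.45, and Akp3, an alkaline phosphatase related to Alpi, read 9.19, 8.80 and 8.34 against 4.63 and 4.47. Vipr1, the receptor of vasoactive intestinal peptide, read 9.49, 9.63 and 8.76 against 6.61 and 5.34. The call of Prkg2 was lost without Cdx2null SI SCs 2 (0.102) or control SI SCs 1 (0.0607), and that of Vipr1 without control SI SCs 1 (0.0559) or with sex as a term (0.0502).

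Some Iroquois homeobox genes separated arrays that carry the same group label. Irx5 read 3.83 and 8.35 on the arrays labelled Cdx2null SI SCs 1 and 2, 3.78 and 8.21 on control Sto SCs 1 and 2, and 3.82, 3.87 and 3.89 on the 3 control SI SCs. Irx3 read 4.81 and 7.45 and 4.95 and 7.74, and Crnde, a noncoding RNA gene, 3.35 and 8.09 and 3.32 and 7.25. In GRCm38.p6, Crnde and Irx5 are adjacent on chromosome 8, and Irx3 lies on the same chromosome. Irx6, on the other side of Irx5, read 4.01 and 3.83 and 3.92 and 3.93. Irx2 showed the same split, at 4.61 and 6.98 and 4.77 and 8.03, and Irx1 (4.27 and 4.04 and 4.32 and 4.29) and Irx4 (3.49 and 3.51 and 3.57 and 3.30) did not. The high arrays carry replicate number 2 in both groups, and no test was made of this pattern.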
